A study of Drosophila melanogaster with 999 samples.

Results

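The machinery by which a neuron fills, docks, fuses and recycles its synaptic vesicles was followed in single embryonic motoneurons of Drosophila melanogaster through 38 genes of synaptic vesicles and active zones. The genes were listed by name, and a member was analysed when its symbol was a row of the gene count table. This held for 37 of the 38, out of 7279 genes in the table. The row for syd-1 was not found under that symbol, and RhoGAP100F, for which RefSeq lists syd-1 as a synonym, was analysed beside the members without being counted among them.

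The cells were 999 motoneurons sorted by RFP fluorescence from pooled embryos of 19 to 20 h that carried OK371-GAL4 and UAS-RFP, and every cell of every group below carried both transgenes. The sort gate was RFP positive, DAPI negative and DRAQ5 positive. OK371-GAL4 is a driver that is active in glutamatergic neurons, which in the fly include the motoneurons and also neurons of the brain. Each cell was 1 library made in a well of 1 of 16 plates by SMART-Seq2, which reads full-length cDNA and has no molecular identifiers, with added primers for 7 Hox genes. No embryo or separate pool is named for any cell, so the cells make up 1 sample and the plates are technical batches. No p-value was therefore computed, and the ranges over plates and the 95% intervals, which cover counting error only, describe this 1 sample.

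The cells were divided by their reads of marker genes. The twit cells (187) had at least 10 reads of twit, a gene named as a target of the BMP receptor wit, and fewer than 10 of Vmat. The Vmat cells (79) had at least 10 reads of Vmat, the vesicular monoamine transporter that marks neurons releasing biogenic amines. The low-twit cells (733) had fewer than 10 reads of both. The low-twit cells were further divided by the most posterior Hox gene with at least 10 reads, since Hox genes mark position along the body axis, into Abd-B (121), abd-A (100), Ubx (74), Antp (45) and Dfd or Scr (57) cells, and 209 low-twit cells had no read of any of the 7 Hox genes. The remaining low-twit cells had Hox reads, but fewer than 10 of each gene that defines a class, and entered no Hox comparison.

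At the presynaptic terminal the vesicle SNARE nSyb and the plasma membrane SNAREs Syx1A and Snap25 zip together to fuse the vesicle, under the control of priming factors such as unc-13 and Rop and of the calcium sensor Syt1. Vesicles are held near calcium channels by the active zone scaffold, in the fly by brp, Rim, Rbp and Fife, and their membrane is retrieved by dynamin (shi), endophilin and their partners. In fly embryos of this age motor axons have reached their muscles and form their first synapses, which use glutamate.

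The sorted population carried the marks of its label. VGlut, the vesicular glutamate transporter, was detected with at least 1 read in 95.8% of the cells, elav in 90.6% and nSyb, itself a member, in 98.6%, whereas zfh1, a motoneuron transcription factor, was in 46.9%. Markers of other cells were rare, with repo of glia in 1.5%, Mhc of muscle in 0.400% and Hml of hemocytes in 0.400%, except for Mef2 (42.2%) and, at low reads, srp (9.01%, and 0.400% at 10 reads). ChAT was in 20.7% and VGAT in 28.2% of the cells. Total counts per cell ran from 100027 to 5834773 with a median of 340803, and ribosomal RNA took 44.4% of all reads. Because depth moves detection, shares of cells were compared between groups after each cell had been thinned to 50000 reads. Thinning leaves the share of ribosomal RNA as it is, and the number of members detected in a cell had a rho with that share of −0.35 before and −0.50 after thinning.

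Most of the release machinery was already transcribed in most motoneurons. Of the 37 members, 10 were detected in at least 90% of the cells, 18 in 50% to under 90% and 9 in fewer than 50%. Members made up a far larger share of the widely detected genes than of the table, since 27.0% of members and 2.16% of all genes reached 90% of the cells. The median member was in 71.8% of the cells and the median gene in 11.6%, and after thinning these values were 61.1% and 9.11%.

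**Figure D1:**
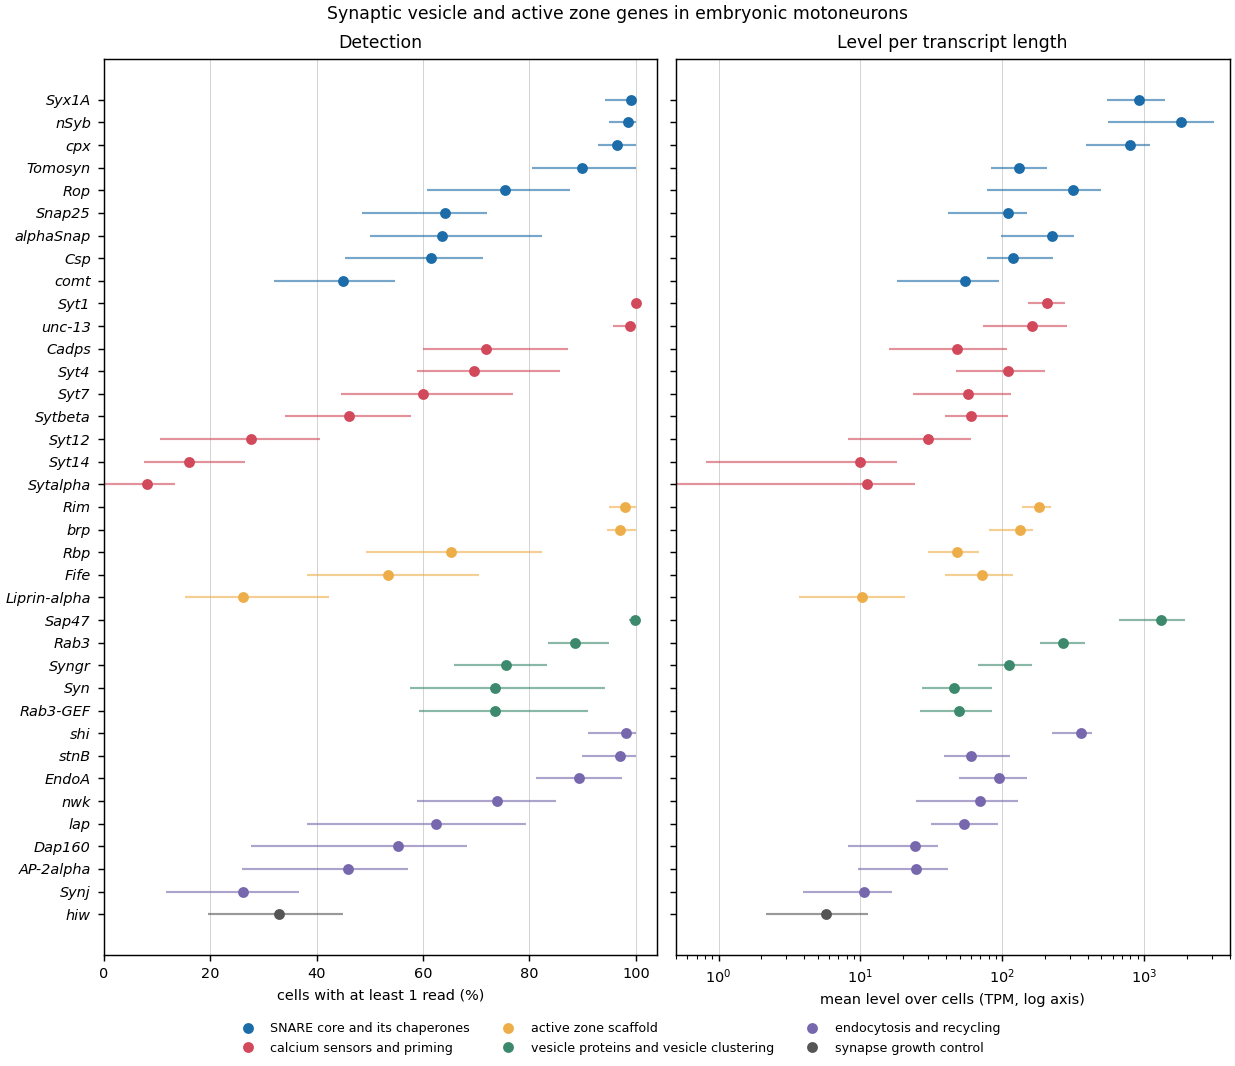
Left, percent of the 999 cells with at least 1 read of each of the 37 members; right, mean level over cells in TPM on a log axis. Points are all cells, lines run from the lowest to the highest of the 16 plates and colours give the role of the gene; 10 members lie above 95% detection, and nSyb and Sap47 have the highest levels.

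Within the fusion machinery the SNAREs themselves were unevenly detected. nSyb was in 98.6% of the cells (97.7 to 99.2) and Syx1A in 99.0% (98.2 to 99.5), while Snap25 was in 64.1% (61.0 to 67.0). Per transcript length, in TPM, nSyb was the highest member at a mean of 1814 ± 620 (SD over 16 plates), followed among the fusion genes by Syx1A at 922 ± 256 and cpx, the complexin that clamps the assembled SNAREs, at 799 ± 208. Snap25 stood at 109 ± 29.2 TPM and its level per length was far below those of its partners. At least 1 read of all 3 SNARE genes occurred in 633 cells (63.4%, 60.3 to 66.4).

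The proteins that handle SNAREs before and after fusion were at intermediate levels. Rop, the fly Munc18, was in 75.5% of the cells at 313 TPM, and alphaSnap, the adaptor for SNARE disassembly, was in 63.6% at 223 TPM. The ATPase comt (NSF) that takes SNARE complexes apart was in 45.0% at 54.6 TPM. Tomosyn, an inhibitor of SNARE assembly, was in 89.9% at 131 TPM, and the chaperone Csp was in 61.6% at 119 TPM.

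Among the calcium sensors Syt1, the sensor for fast release, was detected in all 999 cells and had a mean of 208 ± 33.6 TPM. The other synaptotagmins were graded below it. Syt4 was in 69.6% of the cells (110 TPM), Syt7 in 60.1% (57.5 TPM), Sytbeta in 46.0% (59.9 TPM), Syt12 in 27.6% (30.1 TPM), Syt14 in 16.1% (9.99 TPM) and Sytalpha in 8.21% (11.1 TPM). Part of the Syt14 value may be shared, because 24.4% of its exonic bases overlap Suv3 on the other strand. The priming factor unc-13 was in 98.9% of the cells at 163 TPM, and Cadps, a priming factor of dense-core vesicles, was in 71.8% at 48.3 TPM.

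The active zone scaffold fell into a common and a restricted part. Rim was in 98.0% of the cells at 183 ± 25.1 TPM, and brp, the ELKS-related protein of the T-bar, was in 97.1% at 134 ± 22.8 TPM. Rbp, the RIM-binding protein, was in 65.3% at 47.8 TPM, Fife, a scaffold related to Piccolo and RIM, was in 53.4% at 71.4 TPM, and Liprin-alpha was in 26.1% at 10.3 TPM. RhoGAP100F was in 88.4% at 51.4 TPM.

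Of the vesicle proteins, Sap47, a synapse-associated vesicle protein, was in 99.9% of the cells and second only to nSyb in level at 1317 TPM. The small GTPase Rab3 was in 88.5% at 266 TPM, its exchange factor Rab3-GEF was in 73.5% at 49.3 TPM, Syngr (synaptogyrin) was in 75.7% at 112 TPM and Syn (synapsin) was in 73.5% at 46.0 TPM. Among the endocytic genes shi was in 98.2% at 357 TPM, stnB in 97.1% at 60.5 TPM and EndoA in 89.4% at 95.4 TPM. The stnB and stnA rows held identical values in the table, as the genes share all exonic bases, and cannot be told apart. The F-BAR protein nwk (74.0%), the clathrin adaptor lap (62.5%) and the intersectin Dap160 (55.4%) were in more than 50% of the cells, and AP-2alpha (45.8%) and the phosphatase Synj (26.1%) were in fewer. The ubiquitin ligase hiw, which restrains growth of the neuromuscular terminal, was in 33.0% of the cells at 5.74 TPM.

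A cell had reads of a median of 26 members, with a range of 4 to 36, and of 23 after thinning (2 to 35). In 916 cells (91.7%, 89.8 to 93.3) all of nSyb, Syx1A, Syt1, unc-13, brp, Rim, cpx and Sap47 were detected, and after thinning in 850 (85.1%). These genes are among the 10 members found in at least 90% of the same cells, so a high joint share follows from their choice. The number of members in a cell followed the number of all genes detected in that cell (rho 0.73, and 0.78 after thinning, over 999 cells that share plates and depth).

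In twit cells Rbp was higher than in low-twit cells, Fife, Sytbeta, Rab3, alphaSnap, Snap25 and Syt4 were lower, and the other members tested were not called. Rbp and Fife belong to the active zone scaffold, of which brp, Rim and Liprin-alpha were not called. A gene was called when its mean CPM (reads of the gene scaled to the total of the cell) differed by at least 1.5-fold and its share of detecting cells moved the same way by at least 10 percentage points. Of the 36 members in at least 10% of the cells after thinning, 1 was called higher and 6 lower, or 19.4%, beside 4.74% higher and 12.8% lower, together 17.6%, of all 3438 genes tested. The share of members called was thus near that of genes in general. The median ratio was 0.73 for members and 0.74 for all genes, a shift of −0.43 on the log2 scale that was −0.22 when ribosomal RNA and Hox genes were left out of the totals and −0.12 with TMM factors, so ratios below 1 are read against it. The median share of ribosomal RNA was 49.4% in twit and 36.2% in low-twit cells, and 1186 and 1274 genes were detected at 50000 reads. The part of these differences in the results below was not tested.

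Rbp was the member called higher. Its mean was 268 CPM in twit and 150 CPM in low-twit cells, a ratio of 1.79, and it was detected in 84.0% and 56.2% of the thinned cells, a difference of 27.7 points (18.1 to 36.4). Over the 16 plates the mean ran from 117 to 476 CPM in twit cells, with a median plate of 270, and from 88.1 to 215 CPM in low-twit cells, with a median plate of 156. The ranges overlapped, but on each of the 16 plates the twit cells were the higher. The ratio was 2.16 without ribosomal RNA and Hox genes in the totals and 2.27 with TMM factors. Rbp lies on chromosome 3R from 15374635 to 15402543 (BDGP6, plus strand).

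Fife moved the opposite way. Its mean was 47.4 CPM in twit and 273 CPM in low-twit cells, a ratio of 0.17, and it was detected in 18.2% and 55.3% of the cells, a difference of −37.1 points (−46.0 to −27.1). The plate means ran from 0 to 155 CPM in twit cells, with a median of 29.0, and from 116 to 423 CPM in low-twit cells, with a median of 261. The ranges overlapped between 116 and 155 CPM, and the twit cells were the lower on all 16 plates. The low-twit cells include those without Hox reads. In the 5 Hox classes together the plate means of Fife ran from 45.5 to 370 CPM, with a median of 221. Fife lies on chromosome 3L from 2655415 to 2711690 on the minus strand.

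Sytbeta, a synaptotagmin that in the fly has been described in neurosecretory neurons, showed the same direction. It averaged 20.3 CPM in twit and 138 CPM in low-twit cells, a ratio of 0.15, with detection in 13.9% and 45.8% of the cells (−31.9 points, −40.2 to −22.5). Its plate means ran from 0 to 52.1 CPM in twit cells and from 79.9 to 330 CPM in low-twit cells, so that the plates of the groups did not overlap. Of 5 genes tested of neuropeptide processing and dense-core vesicles 3 were called lower, beside the 12.8% of all genes, among them Phm, a peptide-amidating enzyme (33.3 against 165 CPM), and IA-2 of dense-core vesicles (592 against 1819 CPM), and none was called higher.

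Rab3, which marks vesicles for the active zone, averaged 190 CPM in twit and 649 CPM in low-twit cells (ratio 0.29). The plate means ran from 116 to 491 CPM in twit cells and from 364 to 961 CPM in low-twit cells, with medians of 164 and 626, and all 16 plates had the lower mean in twit cells. Detection was less separated, at 70.1% and 84.2%, and fell on 12 of the 16 plates in twit cells. The guanine exchange factor of Rab3 did not share the difference, with Rab3-GEF at 157 and 164 CPM.

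The remaining 3 calls were smaller. alphaSnap averaged 132 against 283 CPM (ratio 0.47) and was in 45.5% against 60.9% of the cells, with the mean lower on 15 of 16 plates. Snap25 averaged 72.8 against 129 CPM (0.57) and was in 44.4% against 56.2% of the cells, and its difference of −11.8 points became −9.93 without plate 1 and −9.30 without plate 16, below the limit. Syt4, a synaptotagmin of retrograde and peptide vesicles, averaged 112 against 208 CPM (0.54) with −11.3 points, and −9.72 without plate 16, −9.90 at 100000 reads and −9.83 with thinning over reads outside ribosomal RNA and Hox genes, each short of a call. Just short of a call were lap (1.14-fold, 10.1 points), Syt7 (0.69, −9.76 points), Syngr (0.58, −9.20 points), Syn (0.48, −9.04 points) and Tomosyn (0.70, −8.66 points). With TMM factors the ratio was 1.69 for lap, 0.996 for Syt7, 0.78 for Syngr, 0.67 for Syn and 0.89 for Tomosyn. The ratios of Syt7 and Tomosyn lay near the median of all genes, 0.74, so no direction is given for them.

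**Figure D2:**
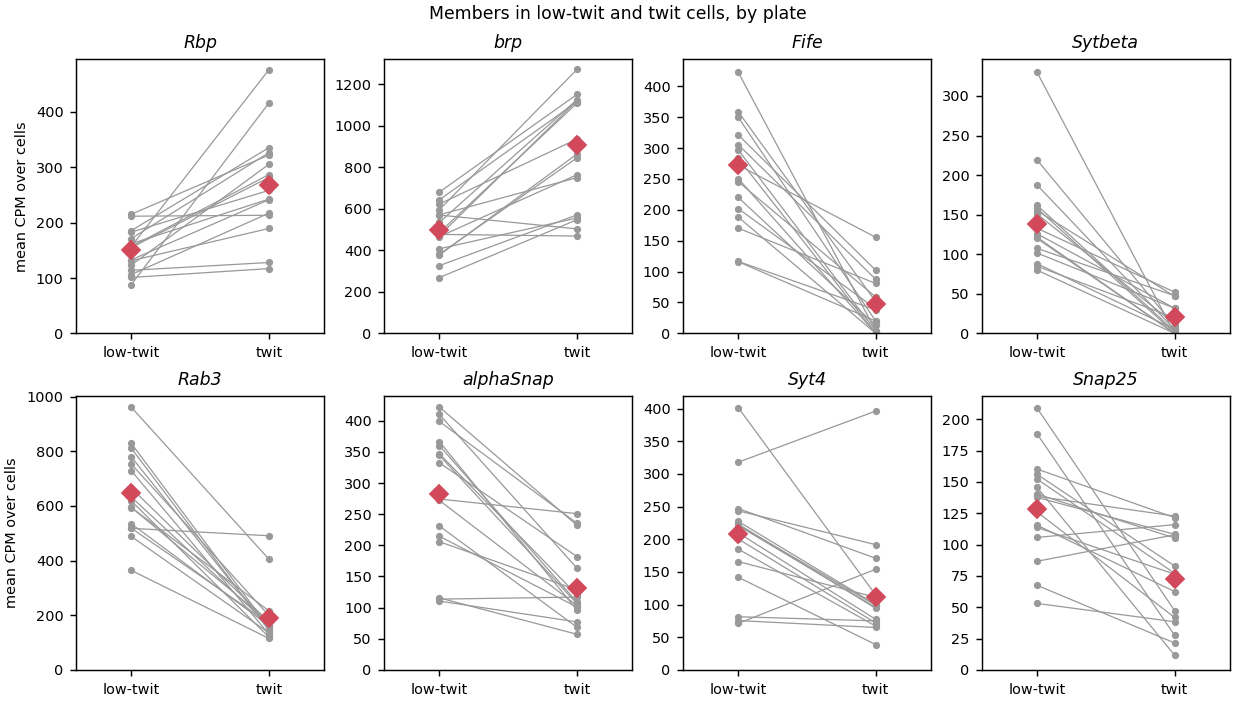
Mean CPM of 8 members in low-twit and twit cells, with 1 line for each of the 16 plates and the mean over all cells of the group as a red diamond. The Rbp line rises and the Fife, Sytbeta and Rab3 lines fall on every plate, while brp rises on 14 of 16.

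A gene found in nearly every cell cannot gain 10 points of detection, which concerns the 10 members in at least 90% of the thinned cells. By level alone, a rule added after the values were seen, 1 of these 10 differed by 1.5-fold, against 24 of the 102 genes of that detection (23.5%). It was brp, with 908 CPM in twit and 496 CPM in low-twit cells, a ratio of 1.83 that was 2.19 without ribosomal RNA and Hox genes and 2.42 with TMM factors. The plate means of brp ran from 468 to 1270 CPM in twit and from 268 to 680 CPM in low-twit cells, and twit cells were the higher on 14 of 16 plates. Syx1A followed at 1391 against 1086 CPM (1.28, and 1.54 and 1.68 under those scalings). Its median plate was at 1295 CPM in twit and 1025 CPM in low-twit cells. Within the low-twit cells it was at 1244 CPM in the 5 Hox classes together and 757 CPM in cells without Hox reads. The difference of Syx1A was thus smaller against the Hox classes. nSyb averaged 1130 against 1517 CPM, a ratio of 0.74 that became 1.03 with TMM factors, so no direction is given for it, and Rim, at 776 against 692 CPM, had a ratio of 1.12 that was 1.35 and 1.47 under those scalings. VGlut, the transporter that loads these vesicles, averaged 459 CPM in twit and 1803 CPM in low-twit cells.

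Other presynaptic genes, from a list of 27 that are not members by symbol, also moved in both directions. The list holds stnA, whose row is the same as that of the member stnB. Of the 24 tested, 3 were called higher in twit cells and 3 lower. The higher ones were Frq1, a frequenin that binds calcium and modulates release (2052 against 519 CPM), its paralogue Frq2 (90.3 against 50.8 CPM) and Esyt2, an extended synaptotagmin of membrane contact sites (127 against 27.1 CPM). The lower ones were Rab27 of secretory vesicles (10.7 against 122 CPM), the vesicular proton pump subunit Vha100-1 (128 against 239 CPM) and AP-2sigma (108 against 190 CPM). The calcium channel of the active zone, cac, was at 377 and 346 CPM. Among 11 tested SNARE genes of general membrane traffic, 1 was called higher (gammaSnap2) and 1 lower (Syx6), and none of 11 glycolytic genes was called.

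The transcripts behind the genes differed as well. Reads had been assigned to single transcripts as estimated counts, and 33 of the members had more than 1 transcript in the deposited files. For 21 members at least 2 transcripts each held 20% or more of the reads. nSyb had its reads divided mainly among nSyb-RF (28.4%), nSyb-RA (26.8%) and nSyb-RJ. nSyb-RJ held 45.9% of the nSyb reads in twit cells and 20.9% in low-twit cells, and averaged 50.1% over the 182 twit cells and 20.6% over the 703 low-twit cells that had at least 10 nSyb reads. It was the higher in twit cells on all 16 plates, with plate values of 32.7 to 78.1% against 11.1 to 34.2%. In the Ensembl annotation nSyb-RJ spans 1630348 to 1637674 on chromosome 3L and is 3411 bases long, with 618 coding bases and 2298 of 3′ UTR, whereas nSyb-RF has 549 coding bases and 74 of 3′ UTR and nSyb-RA has 549 and 355.

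**Figure D3:**
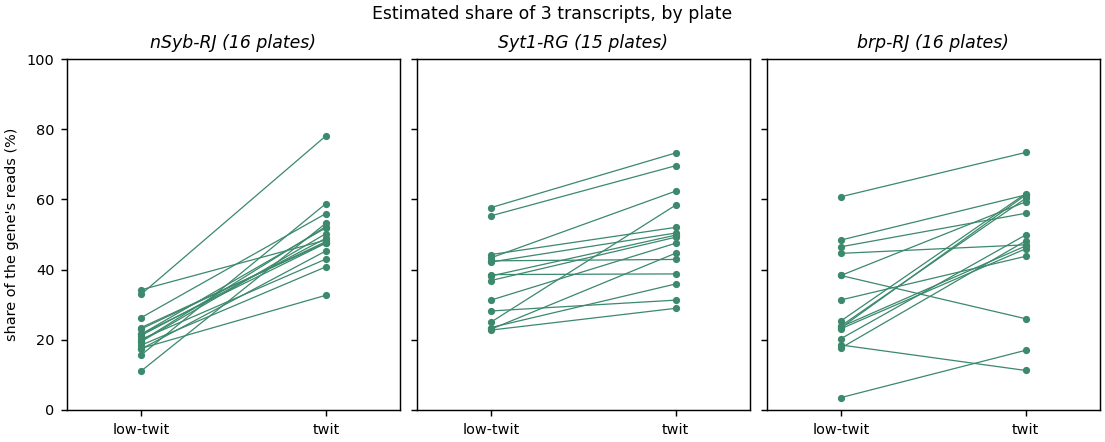
Estimated share of the gene's reads held by nSyb-RJ, Syt1-RG and brp-RJ in low-twit and twit cells, with 1 line per plate that had at least 100 reads of the gene in both groups. The share of nSyb-RJ was higher in twit cells on 16 of 16 plates, that of Syt1-RG on 15 of 15 and that of brp-RJ on 14 of 16.

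The other transcripts singled out after their values were seen also held a larger share in twit cells. brp-RJ, at 11909 bases the longest brp transcript, with 6714 coding bases and 4391 of 3′ UTR, held 53.5% of the brp reads in twit and 30.4% in low-twit cells, and was the higher on 14 of 16 plates. Over the cells with at least 10 brp reads brp-RJ averaged 40.6% in twit and 22.8% in low-twit cells. Its share ran from 11.3 to 73.4% over the plates of twit cells and from 3.51 to 60.8% over those of low-twit cells, so the ranges overlapped widely. Syt1-RG held 52.8% against 32.8% of the Syt1 reads and was the higher on 15 of 15 plates. Over the cells with at least 10 Syt1 reads it averaged 61.0% against 50.5%, a smaller difference. The length of Syt1-RG in the files, 6857 bases, differs from that in the annotation used here. To see whether twit cells had longer transcripts in general, the TPM-weighted mean length was compared over 1454 genes. nSyb went from 1586 to 1845 bases (0.22 on the log2 scale) and was the 14th of these genes from the top, 15 genes (1.03%) exceeded 0.2, and nSyb was 1 of 24 members to do so. No member fell below −0.2, where 11 genes did, and Fife and Dap160 were the lowest members at −0.13 each. Such estimates rest on reads that fit several transcripts, and for Syn 4 transcripts were each given exactly 25% of the reads and for Liprin-alpha a pair had equal values, so these could not be separated.

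Few members were called between Vmat cells and low-twit cells. They carried aminergic markers in part, with Tdc2 in 25.3%, ple in 32.9% and DAT in 32.9%, beside VGlut in 84.8%. Of the 36 members tested 1 was called, or 2.78%, beside 4.19% of all genes (2.39% lower), and the comparison used the same low-twit cells as that of the twit cells. Rop was lower, at 249 against 417 CPM (ratio 0.60) and in 55.7% against 67.1% of the cells, a difference of −11.4 points whose interval, −26.4 to 3.29, included 0. The difference was −9.58 points without plate 3, −9.51 without plate 6, −8.70 without plate 11 and −8.89 without plate 14, each short of the limit, and −9.48 with a group limit of 1 read. The count of members called without 1 plate ran from 0, without plate 11, to 3, without plate 8, and was 2 without plate 2, 5, 6, 9, 13 or 17. Of the 24 other presynaptic genes tested, 1 was called higher in Vmat cells (Esyt2) and 3 lower (VGlut, Frq1 and Frq2).

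Sytbeta and Fife, which were low in twit cells, were common in Vmat cells. Sytbeta was in 70.9% of Vmat and 45.8% of low-twit cells, a difference whose interval was 10.1 to 38.4 points, at 200 against 138 CPM. The ratio of 1.45 was below the limit, and it was 1.52 without ribosomal RNA and Hox genes and 1.60 with TMM factors. It was 1.31 with a group limit of 1 read and 1.35 with the mean of plate means. The mean of Sytbeta was higher in Vmat cells on 9 of 14 plates. Fife was in 78.5% against 55.3% of the cells (23.2 points, 8.90 to 35.4) at 353 against 273 CPM (1.29), with the mean higher on 8 of 14 plates. Other members near a call were lap (1.46-fold, 13.1 points), Rab3-GEF (1.4-fold, 10.1 points) and Snap25 (0.66, −8.11 points). comt had a low ratio of 0.34, at 37.2 against 109 CPM, with detection in 34.2% against 39.8%.

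Along the body axis few members were called among cells with a Hox class, and the levels of most members were lower in Antp cells. Each class was compared with the other 4 classes of low-twit cells. In Antp cells the ratio was below 1 for 30 of the 36 members, with a median of 0.81 beside 0.97 for all genes. On the log2 scale the medians there were −0.31 and −0.05, −0.34 and −0.02 without ribosomal RNA and Hox genes in the totals, and −0.31 and −0.03 with TMM factors. For the 102 widely detected genes of the rule on level alone the median ratio in Antp cells was 0.91. The 10 members among them had a median of 0.79. Widely detected genes as a set were thus also below the 0.97 of all genes. No count of all genes with a ratio below 1 is given beside the 30 of 36. The Antp cells were only 45. Of the plates, 7 had at least 3 cells of each group, beside 10 to 15 plates for the other classes. At 50000 reads a median of 1548 genes was detected in Antp cells and 1187.5 to 1306 in the other classes. The part of this difference in the lower levels was not tested. The median ratios of members and all genes were 0.85 and 0.92 in Dfd or Scr, 1.07 and 1.01 in Ubx, 1.04 and 0.96 in abd-A, and 1.11 and 1.02 in Abd-B cells. In Dfd or Scr cells Liprin-alpha was called higher, 1 of 36 members beside 7.27% of genes (4.92% higher), at 38.1 against 25.1 CPM (1.52-fold) and in 35.1% against 15.3% of the cells. The call was lost with TMM factors (1.43-fold), with a group limit of 1 read (1.28), with the mean of plate means (1.12) and with all cells in place of low-twit cells (1.4). Its ratio was 1.29 without plate 5, 1.35 without plate 6, 1.41 without plate 8, 1.32 without plate 12 and 1.39 without plate 13. In abd-A cells, where 3.87% of genes were called (0.378% higher and 3.49% lower), Liprin-alpha was called lower, at 11.4 against 32.2 CPM (0.35) and in 8.0% against 21.5% of the cells, without any single plate deciding it, but with −9.13 points when all cells took the place of low-twit cells. AP-2alpha was called higher in abd-A cells (101 against 59.1 CPM, 1.72-fold, 47.0% against 36.7%), with 10.3 points. The ratio was 1.41 without ribosomal RNA and Hox genes in the totals, 1.33 with TMM factors and 1.43 with all cells in place of low-twit cells, and the difference was 9.94 points at 100000 reads and 7.64 with thinning over reads outside ribosomal RNA and Hox genes, so the call was lost under each of these 5 alternatives. It was also lost by single plates, as the points became 8.27 without plate 6, 9.36 without plate 8, 9.97 without plate 9, 9.04 without plate 14, 8.93 without plate 15 and 8.89 without plate 17. Leaving out single plates moved the count of members called between 0 (without plate 12) and 4 (without plate 3) in Dfd or Scr cells, 1 (without plate 6, 8 or 17) and 4 (without plate 5 or 9) in abd-A cells, 0 and 3 (without plate 13) in Antp cells, and 0 and 2 (without plate 9 or 11) in Ubx cells. No member was called in Antp cells (beside 9.39% of genes), Ubx cells (2.73%) or Abd-B cells (1.63%). Other settings added calls in Ubx and Antp cells. In Ubx cells Fife was called lower without ribosomal RNA and Hox genes in the totals or the thinning, with TMM factors and with a group limit of 1 read. In Antp cells Rop was called lower with TMM factors and with a group limit of 1 read. EndoA was called lower there with the mean of plate means and with all cells. Other members were called under a single alternative.

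The members nearest to a call in these classes were scattered over the roles. In Dfd or Scr cells EndoA was in 94.7% against 76.8% of the cells at a ratio of 0.93, comt had a ratio of 0.46 with −9.92 points, and cpx, by level alone, was at 1258 against 2100 CPM (0.60), 1 of the 4 genes of 102 (3.92%) so called. In Antp cells Rop (0.70, −17.5 points), EndoA (0.69, −16.8 points) and nwk (0.72, −12.3 points) were low. In Ubx cells Fife (0.70, −11.1 points) and Dap160 (0.61, −9.87 points) were low. In abd-A cells Syt12 was high (2.22-fold, 9.75 points) and Sytbeta low (0.59, −9.30 points). In Abd-B cells Fife (1.78-fold, 7.35 points) and Snap25 (1.52-fold, 7.78 points) were high. Rim was in 94.0% to 100% of the cells of each class.

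More members were called in the cells without Hox reads than in any single Hox class. Compared with the 397 cells of the 5 classes, 5 of 36 members were called, 2 higher and 3 lower, or 13.9%, beside 4.97% of all genes (2.97% higher and 2.01% lower). Over all genes the share called was larger in Antp and in Dfd or Scr cells, and the difference between these comparisons was not tested. The median ratio of the members was 0.84 and that of all genes 0.94, and 29 of the 36 members were below 1. For the 102 widely detected genes of the rule on level alone the median was 0.96, and 0.81 for the 10 members among them. Sytbeta and Fife were higher, and Rop, comt and Snap25 were lower. The median share of ribosomal RNA was 38.7% in cells without Hox reads and between 31.0 and 38.5% in the classes, and the median total was 332246 reads. Detection of Hox genes itself depends on depth, and its part in the group was not tested. The study left such cells out of its later analyses, because a few glutamatergic neurons of the brain might be among them. Whether the differences of this group lie between kinds of neuron was not tested.

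Sytbeta showed the larger difference. It averaged 243 CPM without and 67.2 CPM with a Hox class (3.61-fold) and was in 72.2% against 28.0% of the cells, 44.3 points more (33.0 to 54.6). Its plate means ran from 128 to 794 CPM in cells without Hox reads and from 25.3 to 149 CPM in the classes together, with an overlap of the extremes only, and the former were the higher on all 16 plates. Across the classes it was in 33.3% of Dfd or Scr, 31.1% of Antp, 29.7% of Ubx, 21.0% of abd-A and 28.9% of Abd-B cells, which are shares that do not differ beyond their intervals. Sytbeta lies on chromosome 3L from 15014695 to 15064977 on the minus strand. Its relative Sytalpha, which was too rare to be tested, was in 12.9% against 4.03% of the cells.

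Fife was in 70.8% of the cells without Hox reads and 42.8% of the others (28.0 points, 16.3 to 39.0) at 326 against 216 CPM. Its ratio of 1.51 was at the limit. It was 1.46 with TMM factors, 1.42 with a group limit of 1 read, 1.47 with the mean of plate means, 1.49 without plate 2, 5 or 11, 1.47 without plate 3, 1.43 without plate 13 and 1.44 without plate 14.

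Among the lower members Rop averaged 278 against 533 CPM (0.52) and was in 58.4% against 73.3% of the cells, with the mean lower on 14 of 16 plates. comt averaged 66.7 against 144 CPM (0.46) and was in 32.1% against 45.3% of the cells, lower on 14 plates. Snap25 averaged 95.1 against 159 CPM (0.60) with −11.9 points. The call was lost without plate 10 (−9.12 points), with the mean of plate means (−9.51), with all cells in place of low-twit cells (−8.56) and with thinning over reads outside ribosomal RNA and Hox genes (−8.73), and that of comt with all cells (−7.79). Rop binds the plasma membrane SNARE and comt takes the used complex apart. Syx1A, the partner of Snap25 in the plasma membrane, was lower by level on all 16 plates, at 828 against 1331 CPM (0.62). cpx was at 823 against 1979 CPM (0.42), also lower on all 16 plates. By level alone Syx1A and cpx were the 2 of 10 members so called, beside 9 of 102 genes (8.82%). nSyb did not share the difference to that extent, at 1399 against 1641 CPM (0.85).

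The level of cpx in the single classes is given here for comparison. It averaged 2121 CPM in Abd-B, 2340 in abd-A, 2119 in Ubx, 1479 in Antp, 1258 in Dfd or Scr cells and 823 in cells without Hox reads, with SDs over plate means of 867, 977, 815, 731, 518 and 365. Neighbours in this order did not differ beyond the spread over plates. Near to a call between cells without Hox reads and the classes were Rab3-GEF (1.16-fold, 10.8 points), Cadps (0.84, 8.60 points) and Syt12 (0.68, −8.57 points). Of the 24 other presynaptic genes Rab27 (206 against 63.4 CPM) and Esyt2 (38.0 against 19.6 CPM) were called higher and Frq1 lower (226 against 744 CPM). Of 11 glycolytic genes Pfk and Pgk were called lower, and the peptide enzyme Phm was called higher (222 against 130 CPM).

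**Figure D4:**
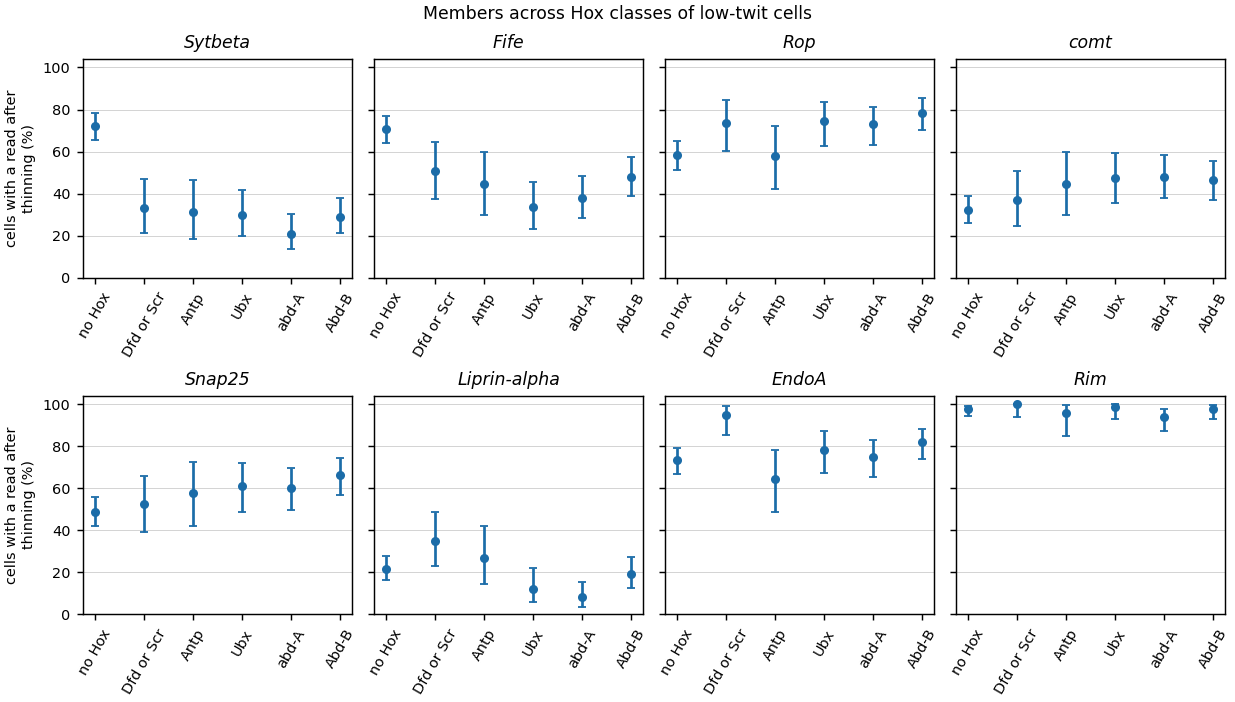
Percent of thinned cells with a read of 8 members in the 5 Hox classes of low-twit cells and in low-twit cells without Hox reads, with 95% Clopper-Pearson intervals. Sytbeta lies between 21.0 and 33.3% in the classes and at 72.2% without Hox reads, while Rim stays at 94.0% or above throughout.

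Within the low-twit cells the median member was less variable, for its level, than the median gene. The squared coefficient of variation lay above a fit on the mean for 3 of 37 members, beside 16.7% of 7207 genes, and for 7 of 37, beside 19.2% of genes, without ribosomal RNA and Hox genes in the totals. The 3 were Fife (0.27 above the fit on the log2 scale), nwk (0.17) and Syt12 (0.11). nwk was at −0.31 without plate 13. The median member was at −0.81 and the median gene at −0.52, and without ribosomal RNA and Hox genes at −0.81 and −0.60. The least variable members were Rim (−1.67), stnB (−1.63) and Syt1 (−1.56), which are also among the members detected in nearly every cell.

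Members rose and fell together from cell to cell only weakly. Over 561 pairs of the 34 members in at least 20% of the thinned cells, Spearman's rho over the 999 cells had a median of 0.106 and ran from −0.161 to 0.563, and 91.4% of pairs were above 0. Over all 2233441 gene pairs the median was 0.0595. The cells share plates, depth and the number of genes detected, and with plate and gene number removed the medians were 0.0549 and 0.00456. Within the 15 plates of at least 30 cells the median of the pairs ran from 0.0636 to 0.161.

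Pairs with the highest values joined abundant vesicle and fusion genes. nSyb and Sap47 reached 0.56 (0.38 with plate and gene number removed), alphaSnap and Rab3 reached 0.55 (0.28), alphaSnap and Syt4 reached 0.55 (0.27), and Syx1A and cpx reached 0.48 (0.44), the highest of all pairs after the removal. At the other end were alphaSnap with unc-13 at −0.16 (−0.02), cpx with Sytbeta at −0.14 (−0.21) and Syx1A with Fife at −0.13 (−0.16). By their median rho with the other members, alphaSnap (0.22), Sap47 (0.21) and Rab3 (0.21) were closest to the rest, and unc-13 (−0.01), Sytbeta (0.03), hiw (0.04) and Fife (0.04) were farthest from it. With plate and gene number removed the order was another, with nSyb (0.15), cpx (0.14) and Sap47 (0.13) at the top, alphaSnap at 0.09, unc-13 at 0.05 and Sytbeta (−0.01) at the bottom.

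**Figure D5:**
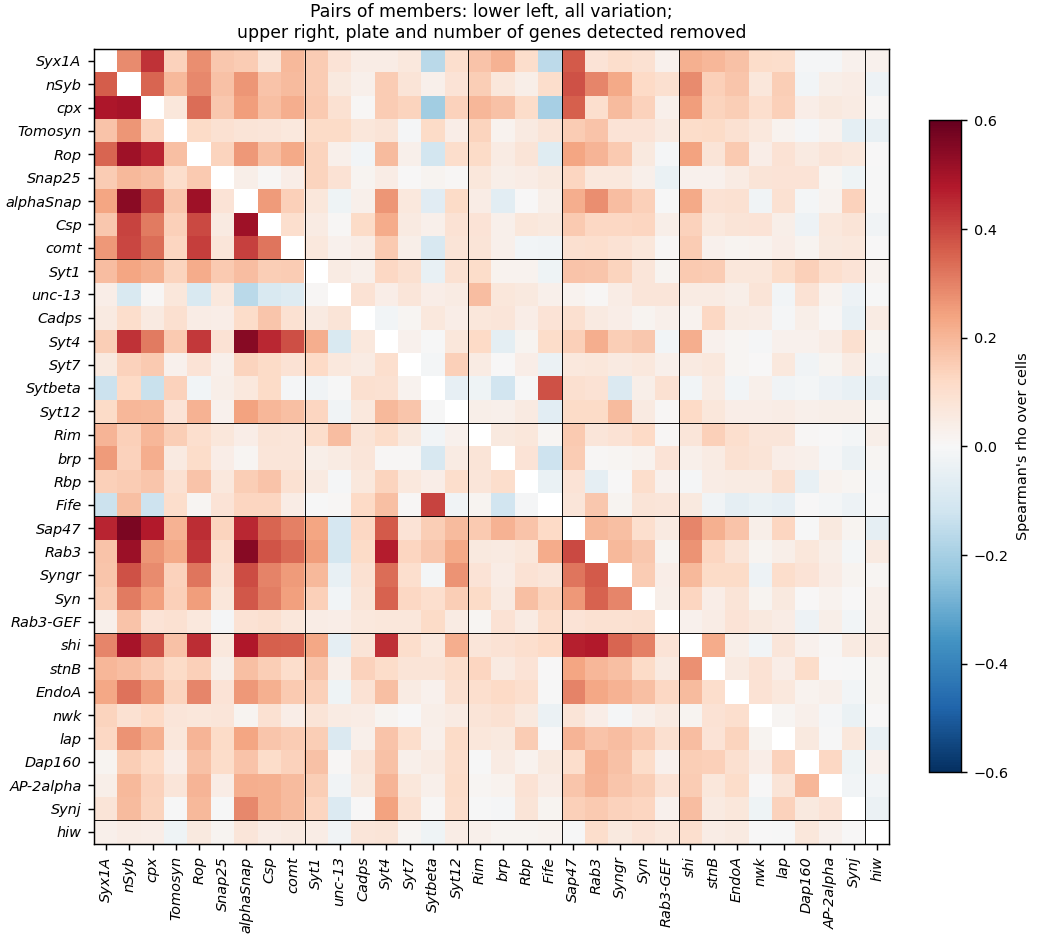
Spearman's rho over 999 cells between pairs of the 34 members in at least 20% of thinned cells, with all variation below the diagonal and with plate and number of genes detected removed above it. Red is positive and blue negative on a scale from −0.6 to 0.6; pairs run from −0.161 to 0.563 below the diagonal, and Sytbeta with Fife is at 0.41.

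Sytbeta and Fife, apart from most members, went with each other. Their rho was 0.41 (0.38 with plate and gene number removed), and Fife was in 72.5% of the cells with Sytbeta and 34.1% of those without it, with both in 303 of 999 thinned cells. This pair was singled out after its values were seen. The log2 odds ratio of finding both was 2.34 over all cells, 2.06 in low-twit, 2.42 in twit and 1.57 in cells without Hox reads, and 0.08 in Vmat cells. In the Hox classes it was 1.96 in Abd-B, 1.41 in abd-A, 0.64 in Ubx, 2.26 in Antp and 2.0 in Dfd or Scr cells. Outside the members the genes most like each of them over the 999 cells had heph, the fly homologue of the splicing repressor PTB, at the top for both (0.44 for Fife and 0.44 for Sytbeta), and bru3, an RNA-binding protein of the Bruno family, in both lists (0.39 and 0.43).

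A score of the members, the mean over members of their standardized log2 CPM in a thinned cell, was used to ask whether they vary as a module with the maturity of a cell. The median member had a rho of 0.30 with the score of the other members, and the median gene 0.21, and with plate and gene number removed these were 0.20 and 0.042. The score followed the number of genes detected (rho 0.74) and the share of ribosomal RNA (−0.60) more than the total count (0.13). A larger share of ribosomal RNA leaves fewer of the thinned reads to all other genes. Genes of differentiated neurons, such as channels and pumps, had a median of 0.21 before and 0.21 after the removal, other presynaptic genes 0.30 and 0.12, and Imp and chinmo, the 2 genes listed for young neurons that could be included, 0.22 and 0.073. The other presynaptic genes include stnA, whose row repeats that of the member stnB, at 0.36 and 0.35. Imp was in 98.6% and chinmo in 97.0% of the thinned cells, so their presence does not set young cells apart here. Glycolytic genes had the highest median of the lists, at 0.67 and 0.44. Ribosomal protein genes had 0.34 before and −0.098 after the removal, when 1.27% of the 79 were above 0.

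The single genes nearest to the score were mostly enzymes of glycolysis. They were Ald (0.74) and Eno (0.74), aldolase and enolase, followed by 14-3-3epsilon (0.70), CG7781 (0.70) and Gapdh1 (0.69). The lowest were ribosomal RNA rows, 18SrRNA-Psi:CR41602 (−0.66), 18SrRNA-Psi:CR45861 (−0.63), pre-rRNA:CR45856 (−0.62) and 28SrRNA-Psi:CR45862 (−0.49), and CG2278 (−0.27). Ribosomal RNA counts towards the fixed total of a thinned cell, so negative values for its rows follow in part from the scaling. With plate and gene number removed 18SrRNA-Psi:CR41602 was at −0.29 and Ald at 0.52. With the share of ribosomal RNA removed as well they were at −0.17 and 0.48. For nSyb the most similar genes were Ald (0.71), Tpi (0.65) and Eno (0.65). For brp the values were far lower, with CG1402 and the neuronal zinc finger gene scrt at 0.27 and twit at 0.26, the last of which also divides the cells above.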

How the data were processed

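Sorted motoneurons were sequenced as single libraries, of which 999 were analysed. Per the submitters' processing notes the reads were assigned with kallisto 0.43.0 to BDGP6 transcripts and handled in R 3.5.1. The authors deposited counts for 7279 genes, which are estimated reads rounded to whole numbers and not normalized, from cells that passed their filter. Per cell they also deposited estimated counts and TPM values for 30651 transcripts, TPM being scaled for transcript length and to a fixed sum per cell. Depth differed between plates, with plate medians from 129256 to 658763 reads, and the 7 Hox genes with added primers cannot be compared in level with other genes.

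Counts were divided by the total per cell to give CPM. Levels between genes were compared as TPM summed over transcripts, and differences between groups as CPM. For shares of cells each cell was thinned at random to 50000 reads, which all cells reached. The groups followed reads of twit, Vmat and Hox genes as given in the report, so differences in those genes are no result. Because all cells form 1 sample, no p-value was computed, and a rule of size replaced a test: a 1.5-fold ratio of mean CPM and a move of the share of detecting cells by 10 points in the same direction, for genes in at least 10% of thinned cells. Shares have exact Clopper-Pearson intervals at 95%, differences of shares combine both limits, and none of these limits covers more than counting error, as PCR copies of a molecule are not independent. A plate entered the within-plate values of a comparison with at least 3 cells of each group. Correlations used genes in at least 20% of thinned cells and log2(CPM + 1). For variability the squared coefficient of variation was fitted on the mean over genes with at least 10 reads in 5 low-twit cells. No doublet caller was used, as each well received 1 cell from the sorter. Transcript coordinates came from Ensembl release 115 (BDGP6.54), which gave the same length for 60 of 64 transcripts looked up.

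The members, gene lists and rules were chosen with earlier results of these data known. The text names every member that was called and up to 5 nearest to a call, the 5 genes with the highest and the lowest rho with the score, the 3 genes most like brp and nSyb, and transcripts with at least 20% of a gene. The likeness of Fife and Sytbeta, the rule on level alone and the transcript comparison between twit and low-twit cells were added after values had been seen. Alternatives were other totals, edgeR TMM factors, other thinning depths, filters and group limits, plate means, and each plate left out. The scripts were tested on simulated data. Python 3.11.15 with numpy 2.4.6, scipy 1.17.1, pandas 2.3.3 and matplotlib 3.10.9, and R 4.3.3 with edgeR 4.0.16, were used. The muscle, imaging and binding data of the study were not analysed here.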

Additional observations from a re-analysis of the deposited data

How the results depend on the processing

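No paired analysis was possible because all cells form 1 sample, with no replicate samples to pair. Groups were compared within plates, which are technical, as given in the report. Of 60 values of the main results under another setting, 46 stayed within 1.5 times, or within the spread over plates, of the value reported, 14 moved and 0 reversed. With a plate left out 134 of 144 stayed. For named members all 336 values under other settings and 704 without a plate stayed within 1 SD over plates, but calls lie near the limits of the rule. That SD is a wide limit, as it comes from ratios of single plates with as few as 3 cells of a group. Liprin-alpha in Dfd or Scr cells, at 1.12 with the mean of plate means, still counted as staying. These counts therefore say little about how stable the ratios are. Of the 16 member calls 8 were lost under at least 1 alternative, as given beside them. The 1 member called in Vmat cells became 2 without ribosomal RNA and Hox genes in the totals, 4 with TMM factors, 0 with a group limit of 1 read and 2 with thinning over reads outside ribosomal RNA and Hox genes, an alternative chosen after seeing the data, and 0 to 3 with a plate left out. The 144 genes called there became 81 with a limit of 1 read. The 8 member calls over the 6 Hox comparisons became 14 with means of plate means and 5 with all cells in place of low-twit cells, and 8 to 13 with a plate left out, the highest without plate 5 or 9. The 1027 calls over all genes there became 1583 with means of plate means. Without a plate, 5 (plate 16) to 9 (plate 11) members were called in twit cells. The median rho of member pairs, 0.106, was 0.0549 with plate and gene number removed, 0.0542 with the share of ribosomal RNA removed as well, also chosen after seeing the data, and 0.0612 with thinning outside ribosomal RNA and Hox genes. The median rho with the score, 0.297, was 0.20 and 0.194 under the first 2 of these. The 3 members above the variability fit became 7 without ribosomal RNA and Hox genes in the totals. The causes were not tested. Reads of the rarest members, such as Sytalpha and Syt14, limit what can be said of them at this depth.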
